A study of Mus musculus with 6 samples.

Results

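The 10 genes described here are *Nfe2l2*, which encodes the transcription factor Nrf2, and 9 antioxidant and glutathione genes, *Nqo1*, *Hmox1*, *Gclc*, *Gclm*, *Gsr*, *Txnrd1*, *Srxn1*, *Prdx1* and *Gpx4*. Each was taken as the row of the count table whose symbol equals the gene name, which gave 10 of 13809 genes. The rows were found by name alone, but the genes were chosen with earlier results of these data known. All 10 passed the filter on low counts, as did 13804 of all 13809 genes. The smallest total count of any gene in the count table was 59. In *Pkm1*-KO hearts, transcripts of *Nfe2l2*, *Gpx4* and *Txnrd1* were lower than in WT hearts, *Txnrd1* in 11 of 14 settings of processing. The other 7 genes did not pass the test and none was called higher. Across all genes tested, 15.7% were called lower and 14.6% higher. Sex of the embryos and genotype cannot be told apart in this series.

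Nrf2 is held at low levels by Keap1, an adaptor that delivers it to a Cullin 3 ubiquitin ligase. Oxidants and electrophiles modify Keap1, upon which Nrf2 accumulates, pairs with a small Maf protein and binds antioxidant response elements near genes for glutathione synthesis, thioredoxin recycling, quinone reduction and heme breakdown. Bach1, a repressor that uses the same Maf partners, occupies many of these elements. In the heart these genes are known for limiting oxidative injury around birth and after ischemia.

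The series compares *Pkm1*-KO with WT mouse hearts at embryonic day (E) 18.5, with 3 libraries per genotype. *Pkm1* and *Pkm2* are splice forms of the pyruvate kinase gene *Pkm*, and the KO allele carries a Cas9-made deletion that places a premature stop in the part read only in *Pkm1*. The founders came from BDF1 zygotes, a hybrid of C57BL/6J and DBA/2, and the KO embryos came from heterozygote intercrosses. The allele is constitutive and no Cre or transgene restricts it, so every cell type of the heart carries it, and no treatment was given to either group. The labels give heart as the tissue, whereas the paper gives ventricular tissue. The study calls the 3 samples of a genotype biological replicates, but whether each library came from 1 embryo is not stated. The columns carry the genotype and no replicate number, so WT a, b and c and KO a, b and c name the libraries in column order.

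Library totals were 15597756 to 19875546 counts in WT and 15567624 to 18577404 in KO, at which 3 counts, taken as the limit of detection for counting error, are 0.151 to 0.193 CPM (counts scaled to library size). Levels are given as CPM scaled by edgeR's TMM factors. WT c stood apart from the other WT libraries, with a chi-square per degree of freedom of 3.76 against WT a and 3.24 against WT b, where WT a against WT b gave 1.56 and the KO pairs 1.62 to 1.88. The targeted gene *Pkm* averaged 1318 ± 41.1 CPM in WT libraries against 541.9 ± 10.1 CPM in KO (SD, n = 3 each) with a log2 fold change of -1.28, and gene counts do not separate *Pkm1* from *Pkm2*. Cardiomyocyte markers were abundant in all 6 libraries, at a sum of 116800 to 127500 CPM. *Xist* was at 4.80 to 5.79 CPM in WT and 2237 to 2332 CPM in KO libraries, and *Ddx3y*, *Uty*, *Eif2s3y* and *Kdm5d* of the Y chromosome had 0 counts in every KO library. Sex of the embryos and genotype therefore cannot be told apart in any comparison here. This holds for the 10 genes too, none of which lies on X or Y.

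The 10 genes are spread over 6 autosomes (coordinates from GENCODE on GRCm38, the build the submitters call mm10). *Nfe2l2* lies on the minus strand at chr2:75675513-75704641 and *Srxn1* on the plus strand at chr2:152105516-152111376. *Gclm* is at chr3:122245557-122270732, *Prdx1* at chr4:116685544-116700822 and *Gclc* at chr9:77754535-77794485, all on the plus strand. Chromosome 8 holds *Gsr* at chr8:33652523-33698163 and *Hmox1* at chr8:75093621-75100589 on the plus strand and *Nqo1* at chr8:107388225-107403206 on the minus strand. Chromosome 10 holds *Gpx4* at chr10:80047166-80056439 and *Txnrd1* at chr10:82833951-82897712, both on the plus strand. *Gclm* overlaps *Gm6061* on its own strand and *Gm17494* on the other, and *Txnrd1* overlaps *Eid3* on its own strand and *Gm38560* and *Gm47073* on the other. *Nfe2l2* overlaps *Gm24996* and *Gsr* overlaps *Gm24727*, each on its own strand. Some reads of these 4 genes could belong to the neighbours.

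Stretches of promoter are shown because the core of the antioxidant response element, TGACNNNGC or its reverse complement GCNNNGTCA, is the sequence that Nrf2 with a small Maf protein is known to bind. RefSeq windows of 250 bases before to 50 bases after an annotated start (build GRCm38.p6) were at hand for 7 of the 10 genes, and not for *Hmox1*, *Gclc* and *Gsr*. The core was found in at least 1 window of 5 of these 7, *Nfe2l2*, *Gclm*, *Txnrd1*, *Srxn1* and *Prdx1*, and in none for *Nqo1* and *Gpx4*. Over all genes, 12.4% of 32851 windows held it, and 17.1% of the 10320 tested genes with a window. The *Prdx1* match is also the longer form TGACTCAGC (as GCTGAGTCA), found in 0.454% of all windows. *Srxn1* and *Prdx1* held the shorter TGACTCA or TGAGTCA, which overlaps the longer form in *Prdx1* and occurs in 5.2% of windows. A match of letters is not a shown binding site, and its absence from a window says nothing about other regions of the gene. Below, capitals mark the matched letters, the strand is that of the gene, and the position in words is that of the first matched base from the start. *Nfe2l2* is shown as the regulator (chr2:75704865-75704913, minus strand, match at -240), *Gclm* as a target whose libraries did not overlap (chr3:122245393-122245461, at -134) and *Txnrd1* as a called target (chr10:82859084-82859152, at -92). Of the 3 *Txnrd1* windows only 1 held the core, and its annotated start lies inside the gene span given above. *Prdx1* (chr4:116685436-116685504, at -133) and *Srxn1* (chr2:152105449-152105515, at -45, showing TGAGTCA) are shown as targets that were not lower, and *Mafk* (chr5:139791493-139791535, at -13) as the Maf partner described further on.
Nfe2l2: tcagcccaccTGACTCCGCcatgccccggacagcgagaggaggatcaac
Gclm: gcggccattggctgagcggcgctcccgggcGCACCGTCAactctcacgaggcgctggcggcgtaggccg
Txnrd1: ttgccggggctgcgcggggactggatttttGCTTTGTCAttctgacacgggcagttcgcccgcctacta
Prdx1: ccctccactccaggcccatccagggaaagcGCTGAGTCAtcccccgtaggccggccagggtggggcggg
Srxn1: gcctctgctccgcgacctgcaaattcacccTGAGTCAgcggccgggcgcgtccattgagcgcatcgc
Mafk: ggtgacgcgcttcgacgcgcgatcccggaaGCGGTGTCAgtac

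Of the 10 genes, 3 were called lower and 0 higher in KO hearts by the quasi-likelihood test of edgeR, with p-values adjusted after Benjamini and Hochberg over the 13804 genes tested. Across all genes tested, 15.7% were called lower and 14.6% higher at the same adjusted p threshold of 0.05. DESeq2, edgeR's exact test and limma's voom also called 0 of the 10 genes higher. The log2 fold change was negative for 7 and positive for 3 genes, with a median of -0.125 against 0.0017 over all genes. All 3 KO libraries were below all 3 WT libraries for 5 genes and above them for 1, where 21.4% and 21.0% of all genes had such groups without overlap.

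**Figure D1:**
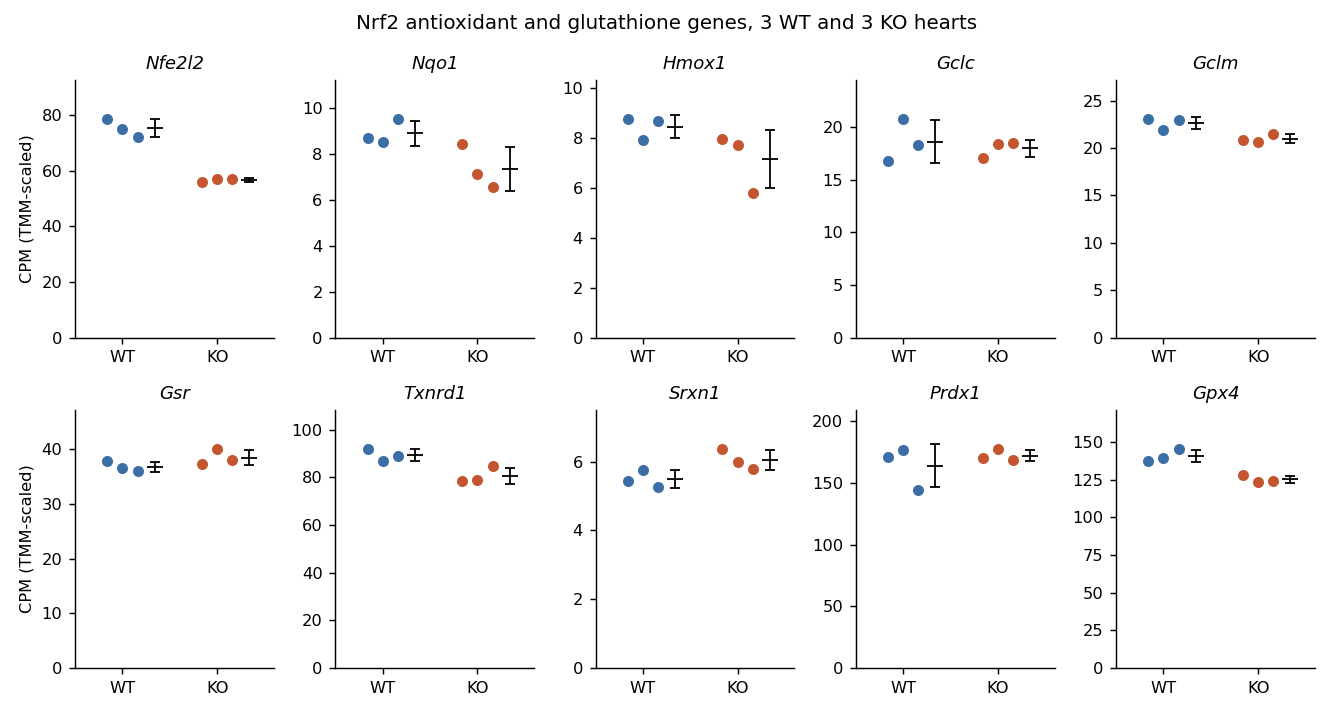
CPM (TMM-scaled, linear axes from 0) of the 10 genes in the 3 WT (blue) and 3 KO (orange) libraries, each point 1 library, with mean and SD beside each group. KO points lie below all WT points for *Nfe2l2*, *Nqo1*, *Gclm*, *Txnrd1* and *Gpx4* and above them for *Srxn1*.

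*Nfe2l2*, the regulator itself, had the lowest adjusted p of the 10 genes. It was at 78.5, 74.8 and 72.1 CPM in WT a, b and c and at 56.0, 57.0 and 56.8 CPM in KO a, b and c. Every KO library lay below every WT library, and the KO libraries differed among themselves by less than the WT libraries did. Mean levels were 75.1 ± 3.21 CPM for WT and 56.6 ± 0.572 CPM for KO (SD, n = 3 each), a ratio of 0.754. Its log2 fold change was -0.41 (SE, the standard error, 0.048, 95% interval -0.51 to -0.31, adjusted p = 2.18e-07 in edgeR's quasi-likelihood fit). It was called under all 14 settings of processing tried, at log2 fold changes of -0.44 to -0.38. These are transcript levels, and the protein, which Keap1 controls after translation, was not measured in this table.

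*Gpx4* encodes the selenium-containing peroxidase that reduces lipid hydroperoxides with glutathione. Its level was 138, 139 and 145 CPM in WT a, b and c against 128, 124 and 124 CPM in KO a, b and c. All KO libraries were below all WT libraries. The log2 fold change was -0.17 (SE 0.0377, 95% interval -0.24 to -0.09, adjusted p = 1.36e-03 in edgeR's quasi-likelihood fit), a ratio of means of 0.891. The *Gpx4* count is itself uncertain, since 34.7% of its 50-base words also occur in the pseudogene *Gpx4-ps2*. The authors' counting could split such reads. For *Prdx1* the part shared with other genes is 8.29% and for *Gclm* 3.92%.

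*Txnrd1* encodes the cytosolic thioredoxin reductase, which uses NADPH to keep thioredoxin reduced. It was at 91.7, 86.8 and 89.1 CPM in WT a, b and c and at 78.6, 78.7 and 84.5 CPM in KO a, b and c. The groups did not overlap, but KO c lay nearer to WT b than to the other KO libraries. This gave a log2 fold change of -0.14 (SE 0.0447, 95% interval -0.24 to -0.05, adjusted p = 0.0152 in edgeR's quasi-likelihood fit). The call was lost without WT a, KO a or KO b (adjusted p = 0.0619, 0.0856 and 0.0731 by the same test), with log2 fold changes of -0.13 in each case.

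The enzymes most often used as readouts of Nrf2 did not pass the test. *Nqo1*, which encodes a quinone reductase, was at 8.69, 8.52 and 9.53 CPM in WT a, b and c and at 8.42, 7.14 and 6.55 CPM in KO a, b and c. The groups did not overlap, but KO a lay only just below WT b. Its log2 fold change was -0.27 with a 95% interval of -0.51 to -0.02 and an adjusted p of 0.0918 in edgeR's quasi-likelihood fit. Without KO a the value was -0.38 (adjusted p = 0.0417 by the same test), the only 1 of 14 settings in which *Nqo1* was called. *Hmox1*, which encodes the stress-inducible heme oxygenase, was at 8.75, 7.91 and 8.67 CPM in WT a, b and c and at 7.95, 7.70 and 5.80 CPM in KO a, b and c. KO a lay above WT b and KO c lay well below all other libraries. For *Hmox1* the log2 fold change was -0.24 (95% interval -0.50 to 0.02, adjusted p = 0.156 in edgeR's quasi-likelihood fit), and without KO c it was -0.10. Counts behind these values were 113 to 167 per library for *Nqo1* and 108 to 155 for *Hmox1*, and the intervals reach from near 0 to below the value of *Nfe2l2*.

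The genes of the glutathione cycle were likewise not called. *Gclc*, the catalytic subunit of glutamate-cysteine ligase, was at 16.8, 20.8 and 18.3 CPM in WT a, b and c and at 17.1, 18.4 and 18.5 CPM in KO a, b and c. The KO libraries of *Gclc* lay within the range of WT. *Gclm*, the modifier subunit of the same ligase, was at 23.1, 21.9 and 22.9 CPM in WT a, b and c and at 20.8, 20.7 and 21.5 CPM in KO a, b and c. For *Gclm* the KO libraries lay below all WT libraries by a narrow margin. *Gsr*, which encodes the reductase that regenerates glutathione, was at 37.9, 36.6 and 36.0 CPM in WT a, b and c and at 37.4, 40.0 and 38.0 CPM in KO a, b and c, with overlapping groups. Log2 fold changes were -0.06 for *Gclc* (95% interval -0.23 to 0.12), -0.11 for *Gclm* (-0.25 to 0.04) and 0.06 for *Gsr* (-0.06 to 0.18). Their adjusted p values in edgeR's quasi-likelihood fit were 0.653, 0.275 and 0.46. Without WT b the value of *Gclc* was 0.03, so its sign rested on that library, and without KO b the value of *Gsr* was 0.03.

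The peroxiredoxin branch gave positive values that did not pass the test. *Srxn1*, which encodes sulfiredoxin, the repair enzyme of overoxidized peroxiredoxins, was at 5.44, 5.77 and 5.26 CPM in WT a, b and c and at 6.36, 6.00 and 5.80 CPM in KO a, b and c. Every KO library lay above every WT library, with KO c only just above WT b. For *Srxn1* the log2 fold change was 0.14 (95% interval -0.13 to 0.41, adjusted p = 0.464 in edgeR's quasi-likelihood fit), from 80 to 120 counts per library. *Prdx1*, an abundant cytosolic peroxiredoxin, was at 171, 177 and 144 CPM in WT a, b and c and at 170, 177 and 168 CPM in KO a, b and c. WT c alone lay apart from the other 5 libraries. For *Prdx1* it was 0.07 (95% interval -0.04 to 0.17, adjusted p = 0.336 in edgeR's quasi-likelihood fit), and without WT c it was -0.02.

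**Figure D2:**
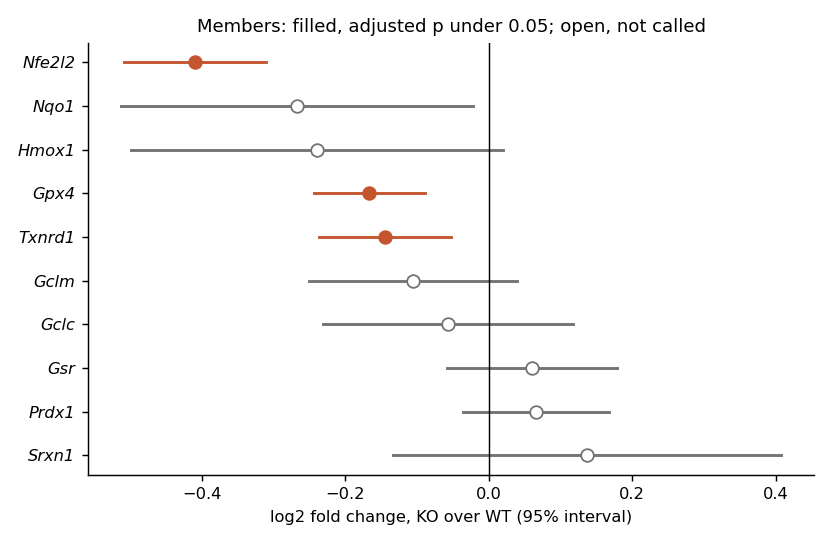
Log2 fold change, KO over WT, of the 10 genes (points) with 95% intervals (lines) from edgeR's quasi-likelihood fit, filled where the adjusted p is under 0.05. The 3 filled points, *Nfe2l2*, *Gpx4* and *Txnrd1*, lie at -0.41, -0.17 and -0.14, and the intervals of the least abundant genes are the widest.

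**Figure D3:**
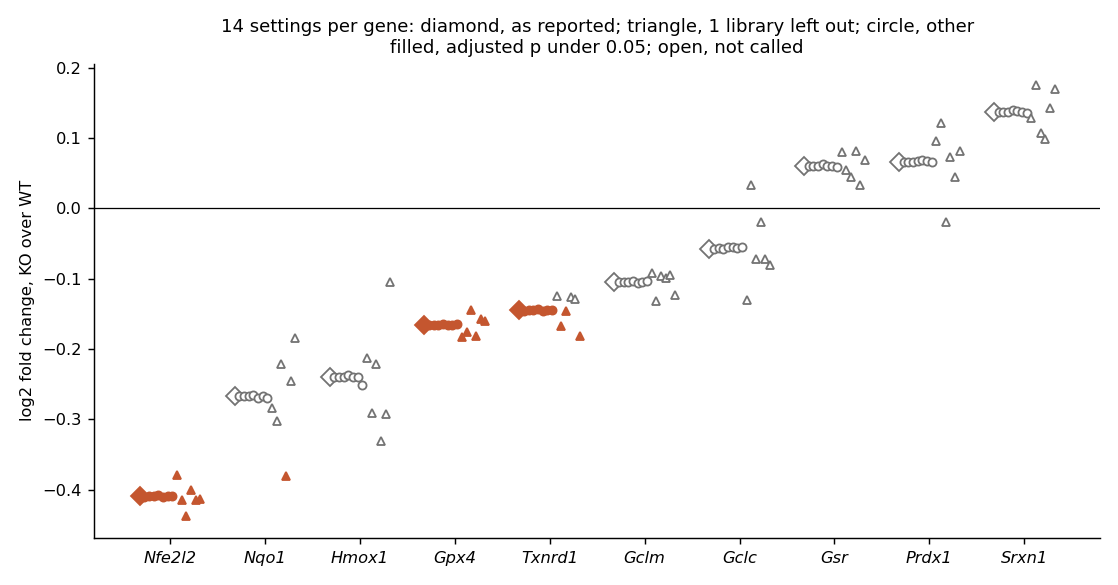
Log2 fold change, KO over WT, of each gene under 14 settings: the reported fit (diamond), the 6 fits with 1 library left out (triangles) and the other fits (circles), filled where the adjusted p is under 0.05. *Nfe2l2* and *Gpx4* are filled throughout, *Txnrd1* in 11 and *Nqo1* in 1, and *Gclc* and *Prdx1* each cross 0 in 1 setting.

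Levels of different genes were compared as WT CPM per kb of the longest annotated transcript (mean ± SD, n = 3). *Gpx4* was highest at 141.5 ± 4.09, followed by *Prdx1* at 71.4 ± 7.65. *Nfe2l2* (30.4 ± 1.30), *Txnrd1* (24.6 ± 0.682) and *Gsr* (13.8 ± 0.356) formed the middle of the order without overlap between neighbours. *Nqo1* (5.74 ± 0.347), *Gclc* (5.44 ± 0.585) and *Hmox1* (5.38 ± 0.295) overlapped one another, and *Gclm* (4.05 ± 0.114) and *Srxn1* (1.95 ± 0.0918) were lowest. In KO hearts the order was the same except that *Gclc* (5.25 ± 0.235) came before *Nqo1* (4.75 ± 0.618). The order depends on the length used, and with the median length of a gene's transcripts *Prdx1* came before *Gpx4* and *Nqo1* came last.

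Cell type markers were counted in the same comparison, where 15.7% of all genes were called lower and 14.6% higher. The marker lists are short, so each share rests on few genes. Of the cardiomyocyte markers, 6 of 7 were lower and 1 higher, at sums of 124100 to 127500 CPM in WT and 116800 to 118400 CPM in KO. Endothelial markers were lower for 3 of 6 (sums of 1066 to 1071 against 992.9 to 1008 CPM), fibroblast markers for 3 of 6 (2655 to 2661 against 2440 to 2485 CPM) and macrophage markers for 2 of 7 (54.0 to 58.6 against 50.2 to 57.2 CPM). Atrial markers were higher for 3 of 5 (586.2 to 593.9 against 998.9 to 1022 CPM) and epicardial markers for 3 of 5 (70.8 to 73.2 against 86.9 to 92.5 CPM). The higher atrial genes were *Nppa*, *Myl4* and *Myl7*. The atrial genes *Nr2f1* and *Nr2f2* were not called (log2 fold changes -0.23 and 0.06), and *Sln* has no row. Of 3 erythroid markers with a row, 1 was lower and 1 higher (33.5 to 35.5 against 35.8 to 43.0 CPM), and the hemoglobin genes have no row. No marker with a row outside the Y chromosome was at 0 in either group. Their part in the results for the 10 genes was not tested, and in such bulk libraries fewer cells of a type and less RNA per cell cannot be told apart.

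The partners and regulators of Nrf2 were described from a list of 14 genes. Of these, 5 (35.7%) were called lower and 0 higher, against 15.7% and 14.6% of all genes. The list median log2 fold change was -0.10. *Mafk*, a small Maf protein that pairs with Nrf2 and Bach1, fell most. It was at 46.9, 51.7 and 52.0 CPM in WT a, b and c and at 24.1, 22.9 and 23.2 CPM in KO a, b and c. No KO library came near the lowest WT library. On the log2 scale the change was -1.10 (SE 0.062, adjusted p = 1.15e-13 in edgeR's quasi-likelihood fit), and it lay between -1.15 and -1.08 under all 14 settings. *Mafk* overlaps *Tmem184a* on the other strand, and whether the counting used strand is not given in the sources used here. The other small Maf genes, chosen after their values were seen, differed from it. *Maff* averaged 19.1 ± 0.353 CPM in WT hearts and 16.2 ± 0.94 CPM in KO hearts (log2 fold change -0.23, adjusted p = 0.0273 in edgeR's quasi-likelihood fit), a call lost without WT a, KO b or KO c and by DESeq2. *Mafg* was at 18.7 ± 2.13 and 20.5 ± 0.654 CPM (log2 fold change 0.13, 95% interval -0.04 to 0.30) and was not called, and WT c, its lowest library, carried most of that value, which was 0.04 without it.

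*Keap1*, the inhibitor of Nrf2, averaged 49.3 ± 3.13 CPM in WT hearts and 49.3 ± 1.71 CPM in KO hearts, with a 95% interval of the log2 fold change of -0.11 to 0.12 (adjusted p = 0.966 in edgeR's quasi-likelihood fit). *Bach1*, the competing repressor, was at 61.5, 60.6 and 53.3 CPM in WT a, b and c and at 55.2, 56.7 and 53.5 CPM in KO a, b and c. WT c lay just below all KO libraries and the other WT libraries above them. The log2 fold change of *Bach1* was -0.09 (adjusted p = 0.233 in edgeR's quasi-likelihood fit), and without WT c it was -0.15 (adjusted p = 0.019 by the same test), the only setting with a call. *Sqstm1*, whose product p62 binds Keap1 and delivers it to autophagy, fell from 134 ± 2.99 to 115 ± 2.98 CPM (log2 fold change -0.23, adjusted p = 5.26e-05 in edgeR's quasi-likelihood fit). *Nfe2l1*, a relative of Nrf2 known for proteasome gene control, fell from 265.4 ± 13.4 to 231 ± 2.39 CPM (log2 fold change -0.20, adjusted p = 8.87e-05). *Gsk3b*, a kinase that marks Nrf2 for degradation and the fifth lower gene of the list, was named after its values were seen and had a log2 fold change of -0.16 (adjusted p = 3.52e-04).

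**Figure D4:**
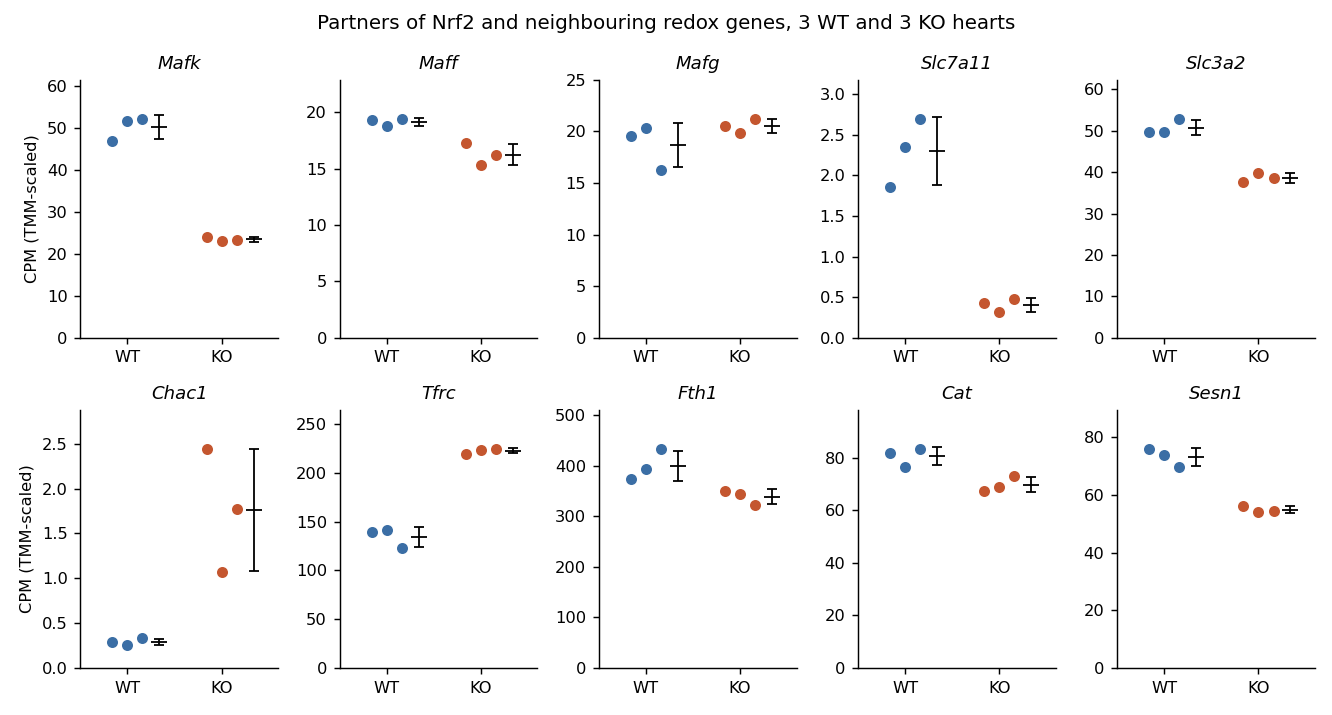
CPM (TMM-scaled, linear axes from 0) of the 3 small Maf genes and of cystine, glutathione, iron and peroxide genes in the 3 WT (blue) and 3 KO (orange) libraries, with mean and SD. *Mafk*, *Slc7a11* and *Slc3a2* lie lower in all KO libraries and *Chac1* and *Tfrc* higher, while the groups overlap for *Mafg*.

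In the list of glutathione synthesis and turnover, 10 of 13 tested genes were not called, 2 (15.4%) were lower and 1 (7.69%) higher. Across all genes 15.7% were lower and 14.6% higher. The list median log2 fold change was -0.11. *Slc7a11*, the cystine importer of system xc-, was at 1.85, 2.35 and 2.69 CPM in WT a, b and c and at 0.424, 0.316 and 0.483 CPM in KO a, b and c. The counts behind this were 32 to 46 in WT and 5 to 9 in KO libraries, and the groups lay far apart. Its log2 fold change was -2.45 (SE 0.317, adjusted p = 1.14e-06 in edgeR's quasi-likelihood fit). *Slc3a2*, the heavy chain that carries Slc7a11 and other amino acid transporters to the membrane, was at 49.7, 49.6 and 52.8 CPM in WT a, b and c and at 37.6, 39.9 and 38.5 CPM in KO a, b and c. The groups did not overlap, and the log2 fold change was -0.39 (SE 0.0548, adjusted p = 4.03e-06 by the same test). *Chac1*, which encodes an enzyme that cleaves glutathione and is induced by the integrated stress response, was at 0.290, 0.255 and 0.329 CPM in WT a, b and c and at 2.44, 1.07 and 1.77 CPM in KO a, b and c. WT libraries held 5 counts each and KO libraries 17 to 46, so every KO library was above WT. *Chac1* thus had a log2 fold change of 2.61 (SE 0.396, adjusted p = 1.24e-05 in edgeR's quasi-likelihood fit).

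Among the 5 tested glutathione peroxidases, *Gpx4* was lower and *Gpx3* higher (20% each, against 15.7% and 14.6% of all genes). The list median was -0.03. *Gpx3*, the secreted plasma form, averaged 78.2 ± 4.40 CPM in WT hearts and 85.9 ± 2.88 CPM in KO hearts (log2 fold change 0.14, adjusted p = 0.0277 in edgeR's quasi-likelihood fit). WT c and KO b were level at 82.9 CPM, and the call was lost without WT a, WT b, KO a or KO c and by DESeq2. Of 18 tested glutathione S-transferases, which join glutathione to electrophiles, 5 (27.8%) were lower and 0 higher, with a median of -0.11. *Gstm1* fell from 45.3 ± 3.93 to 36.0 ± 2.81 CPM (log2 fold change -0.32, adjusted p = 5.08e-04 in edgeR's quasi-likelihood fit), though 18.9% of its 50-base words occur in related genes. *Gstk1*, a mitochondrial and peroxisomal form, fell from 7.33 ± 1.10 to 4.98 ± 0.765 CPM (log2 fold change -0.54, adjusted p = 5.77e-03). *Gstm7* was at 14.6 ± 1.48 and 11.9 ± 1.23 CPM (log2 fold change -0.30, adjusted p = 0.0241), a call lost without WT c or KO a and by DESeq2. The other lower genes, *Gstm2* and *Mgst3*, were named after their values were seen and had log2 fold changes of -0.19 and -0.13.

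In the thioredoxin, peroxiredoxin and glutaredoxin list, 3 of 21 genes (14.3%) were lower and 1 (4.76%) higher, with a median log2 fold change of 0.015. Both shares were below the 15.7% and 14.6% of all genes. Besides *Txnrd1*, the lower genes were *Sesn1* and *Prdx5*. *Sesn1*, a sestrin that restrains mTORC1 and is known as a target of p53 and FoxO factors, was at 75.9, 74.0 and 69.7 CPM in WT a, b and c and at 56.3, 54.2 and 54.4 CPM in KO a, b and c. The groups were well apart, with a log2 fold change of -0.41 (SE 0.0488, adjusted p = 2.41e-07 in edgeR's quasi-likelihood fit). *Prdx5*, a peroxiredoxin of several organelles, had a log2 fold change of -0.11 (adjusted p = 0.0407), which was not called without WT b or any 1 KO library or by DESeq2. *Nxn*, which encodes nucleoredoxin, rose from 20.9 ± 0.388 to 24.7 ± 1.15 CPM (log2 fold change 0.25, adjusted p = 9.35e-03), a call lost without KO a (adjusted p = 0.0594 in edgeR's quasi-likelihood fit). The other thioredoxin reductase genes, chosen after their values were seen, gave 0.18 for mitochondrial *Txnrd2* (adjusted p = 0.0755) and -0.16 for *Txnrd3* (adjusted p = 0.109), neither called by the same test.

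Of the superoxide dismutases and catalase, 2 of 5 genes (40%) were lower and 0 higher, with a median of -0.10. Across all genes 15.7% were lower and 14.6% higher. *Cat*, the catalase gene, was at 81.9, 76.6 and 83.2 CPM in WT a, b and c and at 67.2, 68.9 and 72.9 CPM in KO a, b and c. No KO library reached the lowest WT library, and the log2 fold change was -0.21 (adjusted p = 1.65e-03 in edgeR's quasi-likelihood fit). *Sod3*, the extracellular dismutase, averaged 2.22 ± 0.276 CPM in WT hearts and 1.23 ± 0.198 CPM in KO hearts (log2 fold change -0.85, adjusted p = 9.89e-03), a call lost without KO a (adjusted p = 0.0578 in edgeR's quasi-likelihood fit).

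Of 12 tested heme and iron genes, 10 were not called, 1 was lower and 1 higher (8.33% each, below the 15.7% and 14.6% of all genes), with a median log2 fold change of 0.016. *Tfrc*, the transferrin receptor through which cells take up iron, was at 140, 142 and 123 CPM in WT a, b and c and at 220, 224 and 224 CPM in KO a, b and c. Every KO library was above every WT library, WT c being the lowest, and the log2 fold change was 0.72 (SE 0.0415, adjusted p = 1.70e-13 in edgeR's quasi-likelihood fit). *Fth1*, the ferritin heavy chain that stores iron and a known Nrf2 target, was at 374, 394 and 433 CPM in WT a, b and c and at 350, 344 and 322 CPM in KO a, b and c. The groups did not overlap, and the log2 fold change was -0.24 (adjusted p = 4.15e-05 by the same test). The light chain *Ftl1*, chosen after its values were seen, was at 306.5 ± 1.09 and 309.1 ± 9.80 CPM and was not called, and 50.9% of its 50-base words occur in pseudogenes and other genes.

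**Figure D5:**
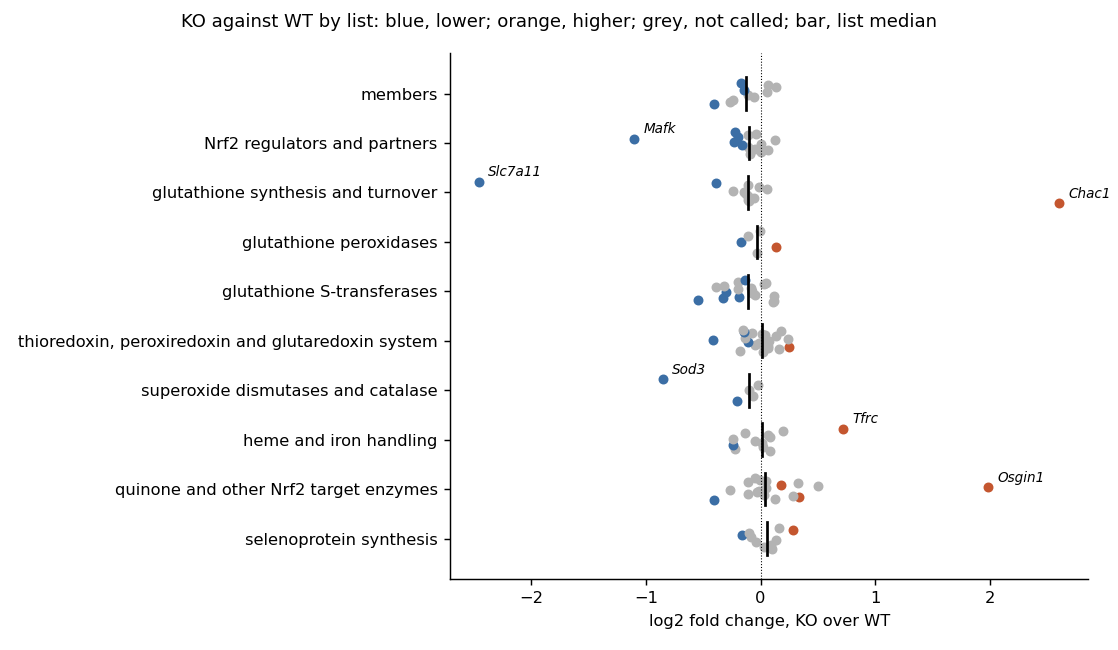
Log2 fold change, KO over WT, of every tested gene in the 10 studied genes (top line) and in the 9 wider lists, blue where called lower, orange where called higher and grey where not called, with the list median as a bar. Most genes lie within a narrow band around 0, and the named points *Slc7a11*, *Mafk* and *Sod3* lie to its left and *Chac1*, *Osgin1* and *Tfrc* to its right.

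Over all 9 wider lists with the 10 genes left out, 19 of 107 tested genes (17.8%) were lower and 8 (7.48%) higher, with a median log2 fold change of -0.04. The corresponding shares of all genes were the 15.7% and 14.6% given above. Leaving out KO a brought these counts to 14 and 5, and DESeq2 to 13 and 6. Calls over all genes were also fewer in these settings, with 1704 lower and 1547 higher without KO a and 1639 and 1362 by DESeq2, against 2168 and 2011.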

How the data were processed

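RNA of WT and *Pkm1*-KO hearts (E18.5, 3 libraries each) was depleted of ribosomal RNA and sequenced with paired ends. The submitters' processing notes name cutadapt 1.18, HISAT2, StringTie and mm10, and the counting program is not given in the sources used here. For each gene symbol, the authors deposited counts without normalization. Their own comparison in the same table (log2 fold changes, mean log2 CPM, p-values, false discovery rates) was not used.

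The test was run with edgeR 4.0.16 under R 4.3.3 (filterByExpr, TMM, quasi-likelihood test, Benjamini-Hochberg adjustment over 13804 genes), called at an adjusted p under 0.05. The standard error is the size of the log2 fold change divided by the square root of F. The quasi-likelihood test was tested on simulated counts drawn with the means, library sizes and dispersions of these libraries. The simulated counts held no outlying library and no sex difference, so they cannot show errors from either. P-values measure the spread between these libraries, and no pair of libraries agreed within sampling noise.

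Named genes were all 10 genes studied, *Keap1*, *Bach1*, *Pkm*, and per list up to 3 genes per direction with the smallest adjusted p (mean of at least 1 CPM, no overlap). Pathway genes outside this rule were named after their values were seen, as said where their values are given. The genes and lists were chosen with earlier results of these data known. Several lists also hold some of the 10 genes. Shared sequence was measured in 50-base words of GENCODE transcripts. Alternatives were RLE factors, TMM without *Rn45s* and sex-linked genes, other filters, DESeq2 1.42.0, edgeR's exact test, limma 3.58.1 voom and each library left out.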

Additional observations from a re-analysis of the deposited data

How the results depend on the processing

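Across 14 settings the count of the 10 genes called lower was 2 or 3 and the count called higher was 0. It was 2 without WT a or KO b, and without KO a *Nqo1* took the place of *Txnrd1*. With 1 library left out, the wider lists gave 14 to 21 lower and 5 to 9 higher genes, with 5 higher without KO a. Calls over all genes moved in the same fits, from 1704 to 2306 lower and from 1479 to 2013 higher. Signs turned only with a library left out, and only for genes that were not called: *Gclc* ranged from -0.13 to 0.033, *Prdx1* from -0.019 to 0.12, *Keap1* from -0.042 to 0.046 and *Ftl1* from -0.0057 to 0.038 on the log2 scale. Over all genes the median log2 fold change stayed between 0.00054 and 0.0031. With at least 10 counts in every library, *Slc7a11*, *Chac1* and *Osgin1* were not tested. Levels per kb moved with the median transcript length to 253 for *Prdx1*, 191.5 for *Gpx4*, 51.3 for *Gsr*, 38.3 for *Nfe2l2*, 31.7 for *Txnrd1*, 25.8 for *Gclm*, 23.0 for *Gclc*, 12.3 for *Srxn1* and 7.21 for *Hmox1*, because the median covers short transcript models. No paired analysis was possible because no column carries a replicate number, so the replicate block was not run. Depth limits *Srxn1*, *Nqo1* and *Hmox1* most among the 10 genes, as their intervals are the widest.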

Other observations

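The list of quinone and other Nrf2 target enzymes held 1 lower (5.56%) and 3 higher (16.7%) of 18 tested genes. Across all genes the shares were 15.7% and 14.6%. The list median log2 fold change was 0.04. *Abcc1*, an exporter of glutathione conjugates, fell from 19.2 ± 1.19 to 14.5 ± 0.876 CPM (SD, n = 3 each, log2 fold change -0.41, adjusted p = 5.11e-04 in edgeR's quasi-likelihood fit). *Abcc5*, an exporter of cyclic nucleotides, rose from 73.1 ± 0.656 to 91.9 ± 1.70 CPM (log2 fold change 0.33, adjusted p = 1.01e-06). *Pgd*, an NADPH-yielding enzyme of the pentose phosphate pathway, rose from 58.7 ± 1.52 to 66.5 ± 1.26 CPM (log2 fold change 0.18, adjusted p = 4.80e-03). *Osgin1*, an oxidative stress-induced growth inhibitor with a mean under 1 CPM and named after its values were seen, had 4 to 5 counts in WT and 9 to 23 in KO libraries (log2 fold change 1.98, standard error 0.451, adjusted p = 1.41e-03).

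In selenoprotein synthesis, on which *Gpx4* and *Txnrd1* depend, 1 of 10 genes was lower and 1 higher, with a median log2 fold change of 0.057. These shares of 10% each were below the 15.7% and 14.6% of all genes. *Sephs2*, which makes the selenium donor, had a log2 fold change of -0.16 (adjusted p = 0.0412 in edgeR's quasi-likelihood fit) and was called in 8 of 14 settings. *Sepsecs*, which completes selenocysteine on its transfer RNA, had a log2 fold change of 0.28 (adjusted p = 0.0379) and was called in 9 of 14.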
